A study of Mus musculus with 24 samples.

Results

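Interferon-stimulated genes are the 39 antiviral effector and regulator genes followed here, each chosen by its symbol in the count table of 24506 genes, and all 39 were found. They were followed through RNA-seq of cultured pro-B cells from mouse fetal liver, in 7 groups with 2 libraries each, all on the C57BL6/J background. The groups were Ebf1-KO cells carrying the retroviral vector pMiG with Ebf1, with Pax5 or empty, and Pax5-KO cells carrying pMiG with Ebf1, with Pax5 or empty, and wild-type cells with empty pMiG. All 7 groups were therefore transduced, and all were grown on OP9 stromal cells with KIT ligand, FLT3 ligand and interleukin-7. A knockout named below without a vector carried the empty one. The question put to these genes was which of them stand higher without EBF1 or PAX5, and which stay high once either factor is added back. The series also holds EBF1 chromatin immunoprecipitation in 230-238, an Abelson-transformed pre-B line, used here for peaks near the members.

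Type I interferons bind the receptor made of IFNAR1 and IFNAR2, whose kinases JAK1 and TYK2 phosphorylate STAT2. Together with IRF9 it takes part in ISGF3, the complex that binds interferon-stimulated response elements and switches the genes on. The products sense foreign nucleic acid, degrade or trap viral RNA, attach the ubiquitin-like ISG15 to proteins, and amplify or dampen the response. Stem and progenitor cells of several tissues are known to keep some of these genes on without infection. EBF1 and PAX5 are transcription factors that set and hold B lineage identity.

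The response element can be seen in the promoters. RefSeq windows (GRCm38.p6, the build that mm10 names) from 250 bases before to 50 after each start were at hand for 29 members. The element core searched was GAAANNGAAA on either strand, with overlapping matches counted apart, and it was found in 15 of the 29 members (51.7%), against 3.99% of 27018 genes with a window. The members held 24 cores, at a median of 64 bases before the start, counted as -64, and from -217 to 37. The gamma-activated site motif TTCNNNGAA was found in 6 of 29 members (20.7%), against 9.55% of genes, and in 1 member (Bst2) a match overlapped a core. The following stretches show, for each role class, the member with the highest mean CPM (counts per M of library size) among those that hold a core, read along the gene's strand, with the cores in capitals.
Stat2 (chr10:128270256-128270305, plus strand): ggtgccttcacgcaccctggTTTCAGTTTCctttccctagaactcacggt
Ddx58 (chr4:40239794-40239843, minus strand): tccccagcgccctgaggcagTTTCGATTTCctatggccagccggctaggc
Oas3 (chr5:120777705-120777754, minus strand): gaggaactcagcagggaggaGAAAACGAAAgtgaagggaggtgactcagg
Ifit1 (chr19:34640765-34640833, plus strand): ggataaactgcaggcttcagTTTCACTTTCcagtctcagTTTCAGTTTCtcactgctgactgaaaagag
Isg15 (chr4:156200855-156200916, minus strand): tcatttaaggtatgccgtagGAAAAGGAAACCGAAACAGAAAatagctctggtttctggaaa
Bst2 (chr8:71537567-71537622, minus strand): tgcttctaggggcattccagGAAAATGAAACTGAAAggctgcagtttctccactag
Trim30a (chr7:104465200-104465249, minus strand): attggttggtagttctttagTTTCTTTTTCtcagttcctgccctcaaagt
Gbp2 (chr3:142620584-142620633, plus strand): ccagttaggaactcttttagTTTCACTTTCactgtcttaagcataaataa
Cxcl10 (chr5:92349073-92349122, minus strand): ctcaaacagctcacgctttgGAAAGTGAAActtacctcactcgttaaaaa
Isg15 carries 3 overlapping cores in 1 run, and Ifit1 and Bst2 carry 2 each. Gbp2 and Gbp3, which behaved unlike the rest of the set, hold the core as well. The exact letters are not in the window of 14 members, among them Irf7, Irf9, Oasl2 and Samhd1.

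Depth lay between 16.1 and 42.1 M (mega) exon counts a library, and levels are CPM after scaling. Ebf1 RNA was 857 to 893 CPM in Ebf1-KO with Ebf1, 252 to 256 in Ebf1-KO with Pax5 and 244 to 282 in Ebf1-KO, and 1483 to 1644, 488 to 589 and 241 to 315 CPM in Pax5-KO with Ebf1, with Pax5 and with the empty vector, against 966 to 1102 CPM in wild type. Pax5 RNA was 33.1 to 37.2 CPM in Ebf1-KO with Ebf1, 399 to 429 in Ebf1-KO with Pax5 and 2.24 to 2.49 in Ebf1-KO, and 9.07 to 9.61 in Pax5-KO with Ebf1, 440 to 746 in Pax5-KO with Pax5 and 12.3 to 20.1 in Pax5-KO, against 333 to 412 in wild type. Counts include reads from the vector and from any transcript the mutant allele still makes, and Ebf1 RNA in Ebf1-KO lay in the range of Pax5-KO rather than at 0. The summed level of 7 pro-B markers was 28.8 and 39.3 CPM in Ebf1-KO and 830.5 and 941 CPM in Pax5-KO, against 4343 and 3940 in wild type, so the Ebf1-KO cells had almost none of the labelled cell type's defining RNA. With a factor added that sum was 1711 and 1722 CPM in Ebf1-KO with Ebf1, 454 and 536 CPM in Ebf1-KO with Pax5, 1883 and 1616 CPM in Pax5-KO with Ebf1 and 3270 and 3427 CPM in Pax5-KO with Pax5, each below wild type. Exon counts made up 32.4 to 44.4% of the totals in the column headers in replicate 1 of the 7 groups and 50.7 to 65.4% in replicate 2 of the 6 other groups, but 28.5% in wild-type replicate 2. The part of this in the comparisons with wild type was not tested, and without that library 34 members were still called higher in Ebf1-KO and 32 in Pax5-KO. All comparisons come from 1 edgeR quasi-likelihood fit over the 7 groups with Benjamini-Hochberg adjusted p-values over 14550 genes, called at 0.05. A change given with ± is a log2 fold change with its SE. The labels do not say that the 2 libraries of a group came from separate cultures, so p-values speak only of the spread between such libraries, which may be technical.

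The antiviral set stood far higher in both knockouts. In Ebf1-KO 35 of 39 members rose over wild type and 2 fell, where 8.02% and 6.65% of all tested genes did. In Pax5-KO 34 rose and 1 fell, where 8.65% and 5.00% of all tested genes did. The median log2 fold change of the members was 4.32 in Ebf1-KO, also with genes lacking wild-type counts put at their lower bound. It was 4.00 in Pax5-KO, or 3.78 with those genes at their bound, against medians of 0.03 and 0.04 over all tested genes. Summed over the 39 genes, the level was 4281 and 4279 CPM in Ebf1-KO and 3644 and 3541 CPM in Pax5-KO, against 859 and 849.6 CPM in wild type. Of the members 33 rose in both knockouts, where 5.46% of all tested genes did, and these comparisons share the wild-type libraries. All 39 passed the filter on low counts, 37 stood above wild type in both replicate numbers in Ebf1-KO and 38 in Pax5-KO, where 37% and 37.1% of all tested genes did. In bulk RNA, fewer cells of a type and less RNA per cell cannot be told apart, here and below.

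**Figure D1:**
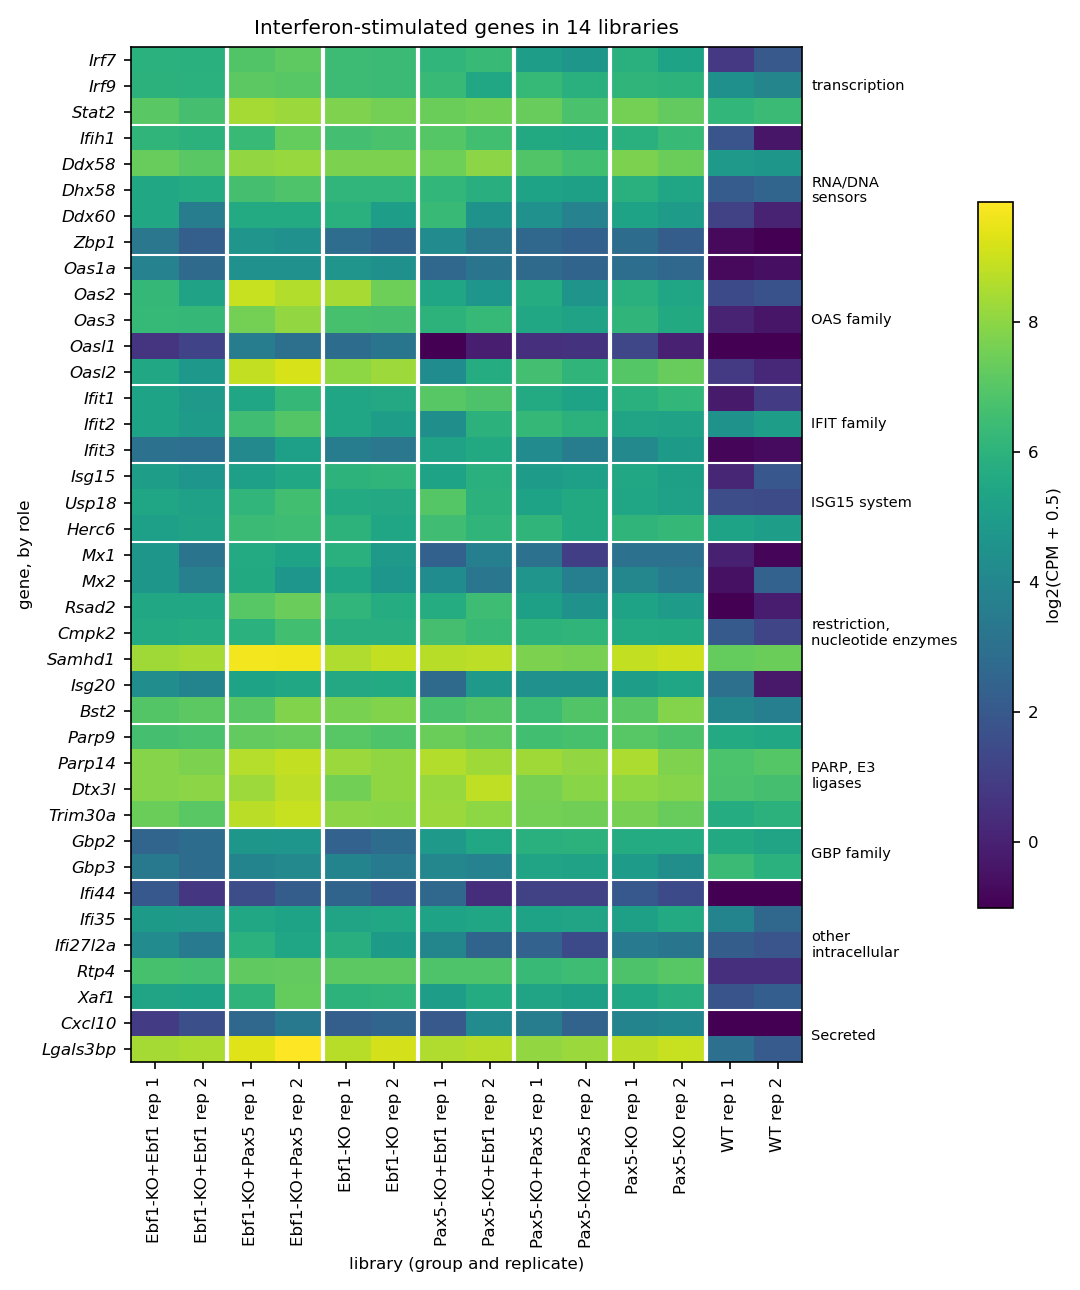
Level of each of the 39 interferon-stimulated genes (rows, grouped by role) in each of the 14 libraries (columns), as log2(CPM + 0.5) on the colour scale. The 2 wild-type columns at the right are dark for most rows, while the row of Gbp3 has its own highest values there.

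Among the transcription factors all 3 rose in both knockouts. Irf7, the master amplifier of interferon production, showed the largest change of the class. Irf7 stood at 60.1 and 58.05 CPM in Ebf1-KO with Ebf1, 119 and 142 CPM in Ebf1-KO with Pax5 and 85.98 and 83.8 CPM in Ebf1-KO. In Pax5-KO cells Irf7 stood at 70.7 and 77.9 CPM with Ebf1, 32.5 and 26.4 CPM with Pax5 and 59.4 and 38.4 CPM with the empty vector, against 1.24 and 3.605 CPM in wild type. Each of the 12 other libraries lay above both wild-type ones, and Ebf1-KO with Pax5 lay highest. The log2 fold change over wild type was 5.14 ± 0.41 (adjusted p = 6.7e-07) in Ebf1-KO and 4.34 ± 0.40 (adjusted p = 3.1e-06) in Pax5-KO. Irf9 RNA reached 61.6 and 59.8 CPM in Ebf1-KO with Ebf1, 139 and 132 CPM in Ebf1-KO with Pax5 and 86.02 and 83.3 CPM in Ebf1-KO. Pax5-KO libraries held Irf9 at 78.9 and 44.2 CPM with Ebf1, 76.2 and 58.8 CPM with Pax5 and 67.2 and 64.3 CPM with the empty vector, against 21.3 and 14.9 CPM in wild type. Irf9, the DNA-binding arm of ISGF3, was likewise above wild type in all 12 libraries. It changed by 2.23 ± 0.29 (adjusted p = 6.6e-05) in Ebf1-KO and 1.86 ± 0.29 (adjusted p = 3.7e-04) in Pax5-KO. Levels of Stat2 were 132 and 98.3 CPM in Ebf1-KO with Ebf1, 329 and 298 CPM in Ebf1-KO with Pax5 and 217 and 189 CPM in Ebf1-KO. Those of Stat2 in Pax5-KO cells were 172 and 186 CPM with Ebf1, 159 and 105 CPM with Pax5 and 191 and 151 CPM with the empty vector, against 72.4 and 83.7 CPM in wild type. Stat2 encodes a subunit of ISGF3. Its 12 other libraries lay above wild type, and Ebf1-KO with Ebf1 replicate 2 was the nearest to it. Its change over wild type was 1.38 ± 0.24 (adjusted p = 8.0e-04) in Ebf1-KO and 1.13 ± 0.23 (adjusted p = 0.00428) in Pax5-KO.

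The cytosolic nucleic acid sensors rose in both knockouts, 5 of 5. Ifih1 encodes MDA5, which recognises long double-stranded RNA. Ifih1 measured 67.9 and 61.6 CPM in Ebf1-KO with Ebf1, 81.7 and 154 CPM in Ebf1-KO with Pax5 and 96.4 and 105 CPM in Ebf1-KO. Pax5-KO cells measured, for Ifih1, 126 and 93.5 CPM with Ebf1, 47.7 and 43.4 CPM with Pax5 and 59.4 and 79.8 CPM with the empty vector, against 3.11 and 0.286 CPM in wild type. The wild-type libraries differed from each other, but both lay far below the other 12. Ddx58 encodes RIG-I, a sensor of uncapped viral RNA ends. Libraries gave Ddx58 at 159 and 133 CPM in Ebf1-KO with Ebf1, 269 and 292 CPM in Ebf1-KO with Pax5 and 210.3 and 209.6 CPM in Ebf1-KO. On the Pax5-KO background Ddx58 was at 176 and 247 CPM with Ebf1, 121 and 94.1 CPM with Pax5 and 209 and 169.7 CPM with the empty vector, against 27.5 and 25.9 CPM in wild type. Wild type was lowest and Ebf1-KO with Pax5 highest, and the log2 fold change was 2.98 ± 0.23 (adjusted p = 4.7e-07) in Ebf1-KO and 2.83 ± 0.23 (adjusted p = 9.4e-07) in Pax5-KO. Dhx58 encodes LGP2, a regulator of both. Dhx58 had 44.8 and 50.8 CPM in Ebf1-KO with Ebf1, 101 and 114 CPM in Ebf1-KO with Pax5 and 70.6 and 70.1 CPM in Ebf1-KO. For Dhx58 the Pax5-KO values were 71.4 and 55.6 CPM with Ebf1, 38.1 and 35.5 CPM with Pax5 and 58.6 and 42 CPM with the empty vector, against 3.94 and 5.32 CPM in wild type. Its 12 other libraries did not overlap wild type. Ddx60 stood at 43.4 and 11.6 CPM in Ebf1-KO with Ebf1, 48.6 and 49.4 CPM in Ebf1-KO with Pax5 and 58.2 and 31.9 CPM in Ebf1-KO. In Pax5-KO cells Ddx60 stood at 81.3 and 23.4 CPM with Ebf1, 22.1 and 13.4 CPM with Pax5 and 39.2 and 31.7 CPM with the empty vector, against 1.66 and 0.515 CPM in wild type. Ddx60, a helicase linked to RIG-I signalling, had replicates far apart in both groups that received Ebf1, yet each library lay above wild type. Zbp1 binds Z-form nucleic acid and triggers necroptosis. Zbp1 RNA reached 9.49 and 4.31 CPM in Ebf1-KO with Ebf1, 24.8 and 21.9 CPM in Ebf1-KO with Pax5 and 6.82 and 5.18 CPM in Ebf1-KO. Pax5-KO libraries held Zbp1 at 18.3 and 9.72 CPM with Ebf1, 5.63 and 4.67 CPM with Pax5 and 6.64 and 4.15 CPM with the empty vector, against 0.104 and 0 CPM in wild type. It had 2 counts in all in wild type, and its level ratio to wild type was 108 in Ebf1-KO, with a 95% counting interval of 29.7 to 898, and 93.8 in Pax5-KO, with an interval of 25.7 to 778. The log2 fold change of Ifih1 was 5.87 ± 0.63 (adjusted p = 1.1e-05) in Ebf1-KO and 5.33 ± 0.62 (adjusted p = 2.8e-05) in Pax5-KO, that of Dhx58 3.93 ± 0.29 (adjusted p = 2.8e-07) in Ebf1-KO and 3.44 ± 0.29 (adjusted p = 1.1e-06) in Pax5-KO, and that of Ddx60 5.35 ± 0.78 (adjusted p = 2.0e-04) in Ebf1-KO and 5.01 ± 0.77 (adjusted p = 3.9e-04) in Pax5-KO.

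The OAS family makes the second messenger 2-5A that activates RNase L, apart from the catalytically inactive OASL proteins, and all 5 members rose in both knockouts. Levels of Oasl2 were 44.6 and 26.7 CPM in Ebf1-KO with Ebf1, 458 and 585 CPM in Ebf1-KO with Pax5 and 256 and 304 CPM in Ebf1-KO. Those of Oasl2 in Pax5-KO cells were 18.9 and 52.7 CPM with Ebf1, 96.6 and 68.6 CPM with Pax5 and 127 and 159 CPM with the empty vector, against 1.29 and 0.687 CPM in wild type. Wild type was lowest, and in both knockouts the libraries with Ebf1 lay below those with the empty vector. Its log2 fold change over wild type was 8.12 ± 0.55 (adjusted p = 1.1e-07) in Ebf1-KO and 7.16 ± 0.54 (adjusted p = 4.1e-07) in Pax5-KO. Oas2 measured 75.1 and 37.2 CPM in Ebf1-KO with Ebf1, 491 and 392 CPM in Ebf1-KO with Pax5 and 341 and 174 CPM in Ebf1-KO. Pax5-KO cells measured, for Oas2, 42.9 and 25.2 CPM with Ebf1, 51.6 and 24.2 CPM with Pax5 and 58.98 and 40.5 CPM with the empty vector, against 2.23 and 2.804 CPM in wild type. The Ebf1-KO libraries with the empty vector or with Pax5 stood above all others, and the 2 Ebf1-KO libraries differed from each other. Oas2 changed by 6.68 ± 0.55 (adjusted p = 8.0e-07) in Ebf1-KO and 4.31 ± 0.50 (adjusted p = 2.9e-05) in Pax5-KO. Libraries gave Oas3 at 75.6 and 73.7 CPM in Ebf1-KO with Ebf1, 191 and 272 CPM in Ebf1-KO with Pax5 and 103 and 99.8 CPM in Ebf1-KO. On the Pax5-KO background Oas3 was at 63.2 and 75.5 CPM with Ebf1, 43.02 and 36.99 CPM with Pax5 and 66.9 and 47.4 CPM with the empty vector, against 0.518 and 0.286 CPM in wild type. Oas3 stood under 1 CPM in wild type and its other groups did not come near it, with changes of 7.95 ± 0.37 (adjusted p = 2.0e-09) in Ebf1-KO and 7.12 ± 0.37 (adjusted p = 1.4e-08) in Pax5-KO. Oas1a had 13.6 and 6.16 CPM in Ebf1-KO with Ebf1, 21.9 and 22.1 CPM in Ebf1-KO with Pax5 and 24.98 and 21.4 CPM in Ebf1-KO. For Oas1a the Pax5-KO values were 5.65 and 8.51 CPM with Ebf1, 6.29 and 5.09 CPM with Pax5 and 7.16 and 5.76 CPM with the empty vector, against 0.104 and 0.172 CPM in wild type. Oas1a was higher in Ebf1-KO than in Pax5-KO, and its change over wild type was 7.36 ± 0.69 (adjusted p = 2.6e-06) in Ebf1-KO and 5.52 ± 0.66 (adjusted p = 3.6e-05) in Pax5-KO. Oasl1 stood at 1.06 and 1.797 CPM in Ebf1-KO with Ebf1, 11.8 and 7.51 CPM in Ebf1-KO with Pax5 and 6.63 and 8.77 CPM in Ebf1-KO. In Pax5-KO cells Oasl1 stood at 0 and 0.427 CPM with Ebf1, 0.885 and 0.991 CPM with Pax5 and 1.99 and 0.497 CPM with the empty vector, against 0 and 0 CPM in wild type. Oasl1 had 0 counts in wild type. It was at least 96.3-fold higher in Ebf1-KO and at least 13.1-fold higher in Pax5-KO, against a floor of 3 counts over the 2 wild-type libraries. The Pax5-KO call did not hold without Pax5-KO replicate 1 (adjusted p = 0.0617) or without wild-type replicate 1 (0.0796) or 2 (0.0908).

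In the IFIT family, whose proteins bind foreign RNA caps and ends, 2 of 3 rose in each knockout. Ifit1 RNA reached 39.1 and 27.8 CPM in Ebf1-KO with Ebf1, 40.9 and 74.2 CPM in Ebf1-KO with Pax5 and 41.9 and 45.7 CPM in Ebf1-KO. Pax5-KO libraries held Ifit1 at 130.2 and 111 CPM with Ebf1, 48.9 and 39.2 CPM with Pax5 and 57.8 and 71.5 CPM with the empty vector, against 0.363 and 1.43 CPM in wild type. Ifit1 was highest in Pax5-KO with Ebf1, and its changes over wild type were 5.63 ± 0.50 (adjusted p = 1.6e-06) in Ebf1-KO and 6.19 ± 0.51 (adjusted p = 1.0e-06) in Pax5-KO. Levels of Ifit3 were 7.904 and 7.39 CPM in Ebf1-KO with Ebf1, 16.6 and 34.2 CPM in Ebf1-KO with Pax5 and 11.4 and 9.43 CPM in Ebf1-KO. Those of Ifit3 in Pax5-KO cells were 37.2 and 47.1 CPM with Ebf1, 18.5 and 11.2 CPM with Pax5 and 16.9 and 29.98 CPM with the empty vector, against 0.0518 and 0.114 CPM in wild type. Ifit3, which stabilises IFIT1, had 3 counts in all in wild type. Its ratio to wild type was 126 in Ebf1-KO (95% counting interval 43.0 to 614) and 307 in Pax5-KO (105 to 1488). Ifit2 measured 38.2 and 30.8 CPM in Ebf1-KO with Ebf1, 92.4 and 123 CPM in Ebf1-KO with Pax5 and 41.2 and 32.9 CPM in Ebf1-KO. Pax5-KO cells measured, for Ifit2, 20.8 and 62.4 CPM with Ebf1, 73.5 and 61.5 CPM with Pax5 and 40.2 and 37.05 CPM with the empty vector, against 23.1 and 32.4 CPM in wild type. Unlike Ifit1 and Ifit3, Ifit2 was well above 1 CPM in wild type. Both knockouts lay just above wild type without a call, at 0.42 ± 0.39 (adjusted p = 0.569) in Ebf1-KO and 0.48 ± 0.39 (adjusted p = 0.484) in Pax5-KO, while Ebf1-KO with Pax5 stood apart from every other group.

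The ISG15 system attaches a ubiquitin-like tag to proteins and removes it. Libraries gave Isg15 at 32.4 and 25.4 CPM in Ebf1-KO with Ebf1, 33.96 and 45.01 CPM in Ebf1-KO with Pax5 and 64.3 and 67.6 CPM in Ebf1-KO. On the Pax5-KO background Isg15 was at 39.2 and 58.7 CPM with Ebf1, 30.8 and 34.02 CPM with Pax5 and 43.9 and 34.95 CPM with the empty vector, against 0.622 and 3.38 CPM in wild type. Isg15, the tag itself, was above wild type in all 12 other libraries, and its change was 5.05 ± 0.56 (adjusted p = 1.4e-05) in Ebf1-KO and 4.31 ± 0.54 (adjusted p = 6.3e-05) in Pax5-KO. Usp18 had 41.5 and 36.9 CPM in Ebf1-KO with Ebf1, 69.4 and 94.3 CPM in Ebf1-KO with Pax5 and 49.7 and 46.6 CPM in Ebf1-KO. For Usp18 the Pax5-KO values were 125 and 62.04 CPM with Ebf1, 38.6 and 47.1 CPM with Pax5 and 40.6 and 36.1 CPM with the empty vector, against 2.43 and 2.35 CPM in wild type. Usp18 removes ISG15 and blocks the receptor. It changed by 4.33 ± 0.36 (adjusted p = 1.0e-06) in Ebf1-KO and 4.00 ± 0.36 (adjusted p = 2.4e-06) in Pax5-KO, and Pax5-KO with Ebf1 replicate 1 was the highest library. Herc6 stood at 34.1 and 38.1 CPM in Ebf1-KO with Ebf1, 83.95 and 89.2 CPM in Ebf1-KO with Pax5 and 64.5 and 42.9 CPM in Ebf1-KO. In Pax5-KO cells Herc6 stood at 90.5 and 68.2 CPM with Ebf1, 67.5 and 48.1 CPM with Pax5 and 67.2 and 73.3 CPM with the empty vector, against 38.8 and 31.9 CPM in wild type. Herc6, the mouse ligase for ISG15, was already present in wild type. Its change was 0.60 ± 0.27 (adjusted p = 0.164) in Ebf1-KO and 0.99 ± 0.27 (adjusted p = 0.0233) in Pax5-KO, and the Pax5-KO call did not hold when any 1 of the 4 libraries was left out, with adjusted p-values from 0.057 to 0.191.

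Restriction factors and nucleotide enzymes were higher in 7 of 7 cases in Ebf1-KO and in 6 of 7 in Pax5-KO. Samhd1 is a dNTP hydrolase that starves reverse transcription. Samhd1 RNA reached 318 and 342 CPM in Ebf1-KO with Ebf1, 801 and 793 CPM in Ebf1-KO with Pax5 and 377 and 455 CPM in Ebf1-KO. Pax5-KO libraries held Samhd1 at 406 and 435 CPM with Ebf1, 209 and 195 CPM with Pax5 and 466 and 521 CPM with the empty vector, against 154 and 169 CPM in wild type. Pax5-KO with Pax5 lay only just above wild type, and Ebf1-KO with Pax5 lay highest. Samhd1 changed by 1.36 ± 0.18 (adjusted p = 6.1e-05) in Ebf1-KO and 1.61 ± 0.18 (adjusted p = 1.6e-05) in Pax5-KO over wild type. Rsad2 encodes viperin, which makes a chain-terminating nucleotide, and its neighbour Cmpk2 encodes a mitochondrial nucleotide kinase. Levels of Rsad2 were 45.4 and 45.5 CPM in Ebf1-KO with Ebf1, 130.1 and 166 CPM in Ebf1-KO with Pax5 and 69.8 and 52.7 CPM in Ebf1-KO. Those of Rsad2 in Pax5-KO cells were 52.4 and 88.1 CPM with Ebf1, 35.3 and 23.6 CPM with Pax5 and 38.4 and 31.5 CPM with the empty vector, against 0 and 0.401 CPM in wild type. Rsad2 was all but missing from wild type, and its change was 8.28 ± 0.63 (adjusted p = 4.0e-07) in Ebf1-KO and 7.47 ± 0.63 (adjusted p = 1.3e-06) in Pax5-KO. Cmpk2 measured 49.2 and 52.2 CPM in Ebf1-KO with Ebf1, 59.5 and 93.7 CPM in Ebf1-KO with Pax5 and 55.2 and 57.5 CPM in Ebf1-KO. Pax5-KO cells measured, for Cmpk2, 99.7 and 80.04 CPM with Ebf1, 63.7 and 68.9 CPM with Pax5 and 49.2 and 47.2 CPM with the empty vector, against 3.73 and 1.89 CPM in wild type. Cmpk2 moved less between the 6 other groups than Rsad2 did, and changed by 4.32 ± 0.35 (adjusted p = 6.7e-07) in Ebf1-KO and 4.09 ± 0.34 (adjusted p = 1.3e-06) in Pax5-KO. Libraries gave Bst2 at 121 and 139 CPM in Ebf1-KO with Ebf1, 132 and 223 CPM in Ebf1-KO with Pax5 and 199.9 and 221 CPM in Ebf1-KO. On the Pax5-KO background Bst2 was at 106 and 124 CPM with Ebf1, 87.03 and 119 CPM with Pax5 and 135 and 229.7 CPM with the empty vector, against 15.1 and 12.2 CPM in wild type. Bst2, or tetherin, holds budding virions at the cell surface, and every one of the 12 libraries lay well above wild type. Its changes were 3.95 ± 0.32 (adjusted p = 8.4e-07) in Ebf1-KO and 3.74 ± 0.32 (adjusted p = 1.6e-06) in Pax5-KO. Mx1 and Mx2 belong to a family of dynamin-like GTPases, members of which block viral entry or replication. The Mx2 transcript counted is annotated as non-coding, and whether Mx1 or Mx2 makes a working protein in these C57BL6/J cells was not tested. Mx1 had 26.5 and 8.56 CPM in Ebf1-KO with Ebf1, 48.5 and 39.03 CPM in Ebf1-KO with Pax5 and 59.2 and 29.01 CPM in Ebf1-KO. For Mx1 the Pax5-KO values were 4.68 and 12.4 CPM with Ebf1, 7.96 and 1.53 CPM with Pax5 and 8.11 and 7.98 CPM with the empty vector, against 0.466 and 0.0572 CPM in wild type. Mx1 was highest in Ebf1-KO with the empty vector or Pax5, and Pax5-KO with Pax5 replicate 2 came nearest to wild type. Mx1 changed by 7.34 ± 1.04 (adjusted p = 1.5e-04) in Ebf1-KO and 4.88 ± 0.97 (adjusted p = 0.00334) in Pax5-KO. Mx2 stood at 26.4 and 12.7 CPM in Ebf1-KO with Ebf1, 47.4 and 25.2 CPM in Ebf1-KO with Pax5 and 40.95 and 25.4 CPM in Ebf1-KO. In Pax5-KO cells Mx2 stood at 18.6 and 9.02 CPM with Ebf1, 24.5 and 12.4 CPM with Pax5 and 15.9 and 10.5 CPM with the empty vector, against 0.207 and 4.86 CPM in wild type. The wild-type libraries of Mx2 lay far apart, and Mx2 was called in Ebf1-KO but not in Pax5-KO, at 3.72 ± 0.90 (adjusted p = 0.0108) in Ebf1-KO and 2.39 ± 0.86 (adjusted p = 0.086) in Pax5-KO. Isg20 RNA reached 19.4 and 14.5 CPM in Ebf1-KO with Ebf1, 38.4 and 44.4 CPM in Ebf1-KO with Pax5 and 46.2 and 48.5 CPM in Ebf1-KO. Pax5-KO libraries held Isg20 at 6.25 and 28.8 CPM with Ebf1, 21.9 and 23.2 CPM with Pax5 and 33.2 and 40.6 CPM with the empty vector, against 7.61 and 0.343 CPM in wild type. Isg20, an RNA exonuclease, also had discordant wild-type libraries, and Pax5-KO with Ebf1 replicate 1 lay below 1 of them. It changed by 3.56 ± 0.88 (adjusted p = 0.0117) in Ebf1-KO and 3.20 ± 0.87 (adjusted p = 0.0226) in Pax5-KO. The Pax5-KO call for Isg20 did not hold without Pax5-KO replicate 2 (adjusted p = 0.0913) or wild-type replicate 2 (0.0622).

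The PARP and E3 ligase members rose in both knockouts, 4 of 4. Levels of Parp14 were 232 and 209.8 CPM in Ebf1-KO with Ebf1, 399 and 459 CPM in Ebf1-KO with Pax5 and 293 and 264 CPM in Ebf1-KO. Those of Parp14 in Pax5-KO cells were 382 and 313 CPM with Ebf1, 314 and 272 CPM with Pax5 and 369 and 214 CPM with the empty vector, against 109.6 and 128 CPM in wild type. Parp14, an ADP-ribosyltransferase, was above wild type in all 12 other libraries, with a change of 1.23 ± 0.24 (adjusted p = 0.00218) in Ebf1-KO and 1.30 ± 0.24 (adjusted p = 0.00174) in Pax5-KO. Trim30a measured 172 and 136 CPM in Ebf1-KO with Ebf1, 416 and 488 CPM in Ebf1-KO with Pax5 and 249 and 241 CPM in Ebf1-KO. Pax5-KO cells measured, for Trim30a, 299.6 and 254 CPM with Ebf1, 193 and 181 CPM with Pax5 and 197 and 158 CPM with the empty vector, against 52.2 and 62.5 CPM in wild type. Trim30a, a tripartite motif protein of mice, rose by 2.10 ± 0.21 (adjusted p = 4.9e-06) in Ebf1-KO and 1.63 ± 0.20 (adjusted p = 5.9e-05) in Pax5-KO, and Ebf1-KO with Pax5 lay highest. Parp9 and Dtx3l form a complex and share a bidirectional promoter. Their annotated transcripts overlap each other, and without a stated strand setting their reads cannot be told apart there. Libraries gave Dtx3l at 233 and 246 CPM in Ebf1-KO with Ebf1, 307 and 432 CPM in Ebf1-KO with Pax5 and 186 and 262 CPM in Ebf1-KO. On the Pax5-KO background Dtx3l was at 289 and 452 CPM with Ebf1, 194 and 239.9 CPM with Pax5 and 255 and 232 CPM with the empty vector, against 105 and 101 CPM in wild type. Every other library lay above wild type, and the change was 1.13 ± 0.25 (adjusted p = 0.00604) in Ebf1-KO and 1.24 ± 0.25 (adjusted p = 0.00356) in Pax5-KO. Parp9 had 101 and 104 CPM in Ebf1-KO with Ebf1, 151 and 158 CPM in Ebf1-KO with Pax5 and 128 and 116 CPM in Ebf1-KO. For Parp9 the Pax5-KO values were 169.7 and 140.5 CPM with Ebf1, 93.5 and 101 CPM with Pax5 and 132 and 113 CPM with the empty vector, against 48.6 and 43.03 CPM in wild type. Parp9 moved within narrow limits and changed by 1.41 ± 0.20 (adjusted p = 1.2e-04) in Ebf1-KO and 1.42 ± 0.20 (adjusted p = 1.4e-04) in Pax5-KO. The Ebf1-KO call of Dtx3l did not hold without Ebf1-KO replicate 2 (adjusted p = 0.0998) or wild-type replicate 2 (0.0627).

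Gbp2 and Gbp3, guanylate-binding GTPases best known as targets of interferon-gamma, went against the set. Gbp2 stood at 5.301 and 6.53 CPM in Ebf1-KO with Ebf1, 26.1 and 25.6 CPM in Ebf1-KO with Pax5 and 4.804 and 6.699 CPM in Ebf1-KO. In Pax5-KO cells Gbp2 stood at 28.9 and 43.1 CPM with Ebf1, 58.7 and 62.2 CPM with Pax5 and 50.3 and 50.2 CPM with the empty vector, against 48.3 and 40.05 CPM in wild type. Gbp2 was low in Ebf1-KO with the empty vector or Ebf1, while Pax5-KO with the empty vector or Pax5 lay at or above wild type. It fell by 2.94 ± 0.32 on the log2 scale (adjusted p = 1.2e-05) in Ebf1-KO, while in Pax5-KO its change was 0.19 ± 0.30 (adjusted p = 0.74). Gbp2 overlaps the microRNA gene Mir6381. Gbp3 RNA reached 9.98 and 6.67 CPM in Ebf1-KO with Ebf1, 14.5 and 16.5 CPM in Ebf1-KO with Pax5 and 14.2 and 10.6 CPM in Ebf1-KO. Pax5-KO libraries held Gbp3 at 15.7 and 13.6 CPM with Ebf1, 39.6 and 37.3 CPM with Pax5 and 30.8 and 19.8 CPM with the empty vector, against 83.5 and 60.02 CPM in wild type. Both wild-type libraries were above the other 12. Gbp3 fell by 2.53 ± 0.36 on the log2 scale (adjusted p = 1.5e-04) in Ebf1-KO and by 1.51 ± 0.35 on the log2 scale (adjusted p = 0.00883) in Pax5-KO, and the Pax5-KO call did not hold without Pax5-KO replicate 2 (adjusted p = 0.135) or wild-type replicate 1 (0.0869).

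The other intracellular members have varied roles. Levels of Rtp4 were 101 and 95.6 CPM in Ebf1-KO with Ebf1, 148 and 149.8 CPM in Ebf1-KO with Pax5 and 136 and 138 CPM in Ebf1-KO. Those of Rtp4 in Pax5-KO cells were 117 and 114 CPM with Ebf1, 80.5 and 87.4 CPM with Pax5 and 112 and 132 CPM with the empty vector, against 0.932 and 0.915 CPM in wild type. Rtp4, a chaperone of membrane receptors and a regulator of interferon signalling, was far above wild type in all 12 other libraries, and changed by 7.21 ± 0.26 (adjusted p = 2.5e-10) in Ebf1-KO and 7.04 ± 0.26 (adjusted p = 5.8e-10) in Pax5-KO. Xaf1 measured 40.05 and 38.6 CPM in Ebf1-KO with Ebf1, 66.9 and 153 CPM in Ebf1-KO with Pax5 and 63.8 and 68.3 CPM in Ebf1-KO. Pax5-KO cells measured, for Xaf1, 33.4 and 50.5 CPM with Ebf1, 39.5 and 35.5 CPM with Pax5 and 44.5 and 55.4 CPM with the empty vector, against 3.004 and 4.29 CPM in wild type. Xaf1, which counters the apoptosis inhibitor XIAP, rose by 4.18 ± 0.40 (adjusted p = 3.7e-06) in Ebf1-KO and 3.78 ± 0.40 (adjusted p = 1.0e-05) in Pax5-KO. Libraries gave Ifi35 at 29.7 and 27.6 CPM in Ebf1-KO with Ebf1, 43.01 and 38.5 CPM in Ebf1-KO with Pax5 and 40.1 and 45.3 CPM in Ebf1-KO. On the Pax5-KO background Ifi35 was at 38.9 and 41.1 CPM with Ebf1, 38.5 and 39.5 CPM with Pax5 and 35.8 and 49.4 CPM with the empty vector, against 14.3 and 5.89 CPM in wild type. Ifi35, a binding partner of NMI, rose by 2.08 ± 0.37 (adjusted p = 0.00103) in Ebf1-KO and 2.08 ± 0.37 (adjusted p = 0.00123) in Pax5-KO, and its 2 wild-type libraries differed from each other. Ifi44 had 3.47 and 1.14 CPM in Ebf1-KO with Ebf1, 2.41 and 4.08 CPM in Ebf1-KO with Pax5 and 5.17 and 3.38 CPM in Ebf1-KO. For Ifi44 the Pax5-KO values were 5.59 and 0.854 CPM with Ebf1, 1.72 and 1.67 CPM with Pax5 and 3.41 and 2.19 CPM with the empty vector, against 0 and 0 CPM in wild type. Ifi44 had 0 counts in wild type and few elsewhere, and was at least 50.9-fold higher in Ebf1-KO and at least 32.6-fold higher in Pax5-KO. Ifi27l2a stood at 18.1 and 10.2 CPM in Ebf1-KO with Ebf1, 60.4 and 42.7 CPM in Ebf1-KO with Pax5 and 57.6 and 29.2 CPM in Ebf1-KO. In Pax5-KO cells Ifi27l2a stood at 15.4 and 5.07 CPM with Ebf1, 4.89 and 2.18 CPM with Pax5 and 10.3 and 8.74 CPM with the empty vector, against 4.04 and 3.09 CPM in wild type. Ifi27l2a was highest in Ebf1-KO cells with the empty vector or Pax5, while Pax5-KO with Pax5 replicate 2 lay below wild type. Its changes over wild type were 3.60 ± 0.61 (adjusted p = 7.2e-04) in Ebf1-KO and 1.41 ± 0.57 (adjusted p = 0.122) in Pax5-KO.

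The secreted members are Lgals3bp, a galectin ligand, and Cxcl10, a chemokine that attracts activated T cells. Lgals3bp RNA reached 334 and 368 CPM in Ebf1-KO with Ebf1, 633 and 919.5 CPM in Ebf1-KO with Pax5 and 414 and 568 CPM in Ebf1-KO. Pax5-KO libraries held Lgals3bp at 371 and 408 CPM with Ebf1, 274 and 294 CPM with Pax5 and 425 and 484 CPM with the empty vector, against 7.303 and 3.78 CPM in wild type. Wild type was lower by far than any other library, and the change was 6.46 ± 0.34 (adjusted p = 6.3e-09) in Ebf1-KO and 6.35 ± 0.34 (adjusted p = 1.7e-08) in Pax5-KO. Levels of Cxcl10 were 1.398 and 2.62 CPM in Ebf1-KO with Ebf1, 5.77 and 9.97 CPM in Ebf1-KO with Pax5 and 4.39 and 5.39 CPM in Ebf1-KO. Those of Cxcl10 in Pax5-KO cells were 3.604 and 18.1 CPM with Ebf1, 11.3 and 5.01 CPM with Pax5 and 14.5 and 16.4 CPM with the empty vector, against 0 and 0 CPM in wild type. Cxcl10 had 0 counts in wild type, and was at least 60.8-fold higher in Ebf1-KO and at least 193-fold higher in Pax5-KO. Per kilobase of exon, the highest levels in Ebf1-KO were 278 CPM per kb for Bst2, 224 for Lgals3bp and 104 for Samhd1, and in Pax5-KO the same 3 genes led with 240.1, 207 and 124 CPM per kb. In wild type Samhd1 led with 40.5 CPM per kb, followed by Gbp3 with 26.3 and Dtx3l with 19.8.

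Most members stayed above wild type with either factor added. In Ebf1-KO with Ebf1 33 members were higher than wild type and 2 lower, where 6.94% and 4.22% of all tested genes were. In Ebf1-KO with Pax5 37 were higher and 1 lower, where 10.2% and 6.23% of all tested genes were. In Pax5-KO with Ebf1 32 were higher and 1 lower, where 8.54% and 5.58% of tested genes were, and in Pax5-KO with Pax5 30 were higher and 0 lower, where 4.82% and 2.31% were. That 0 comes from edgeR, where 36 members and 20.4% of all tested genes had an unadjusted p under 0.05 in either direction, and DESeq2 called 1 member lower. Median log2 fold changes over wild type were 3.86 for Ebf1-KO with Ebf1, 4.76 for Ebf1-KO with Pax5, 3.78 for Pax5-KO with Ebf1 and 3.61 for Pax5-KO with Pax5, where those over all tested genes lay between 0.00 and 0.06. With genes at their bound the Pax5-KO medians were 3.75 with Ebf1 and 3.54 with Pax5. In all 6 groups 29 members were called higher than wild type, as were 2.25% of all tested genes, and these comparisons share the wild-type libraries. Of these 29, the 25 with more than 3 wild-type counts differed by 1.86-fold (Parp14 in Ebf1-KO with Ebf1) to 751-fold (Rsad2 in Ebf1-KO with Pax5).

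Few members were no longer called higher than wild type, and a missing call does not show that the levels were equal. Over all tested genes 1167 were called higher in Ebf1-KO and 1259 in Pax5-KO, and how many of them stayed called was not counted. The counts below therefore do not show whether staying high is particular to the members. Of the 35 that rose in Ebf1-KO, 33 were still called with Ebf1 and 35 with Pax5. Those not called with Ebf1 were Stat2, at 0.56 ± 0.23 (adjusted p = 0.153), and Isg20, at 2.08 ± 0.83 (adjusted p = 0.142). Of the 34 that rose in Pax5-KO, 32 were still called with Ebf1, the others being Oasl1, at least 3.69-fold higher with an adjusted p of 0.0945, and Isg20, at 2.14 ± 0.84 (adjusted p = 0.105). With Pax5 30 of the 34 were still called. The others were Samhd1, at 0.32 ± 0.17 (adjusted p = 0.315), Stat2, at 0.76 ± 0.23 (adjusted p = 0.0662), Herc6, at 0.71 ± 0.27 (adjusted p = 0.142), and Isg20, at 2.49 ± 0.84 (adjusted p = 0.0986). Several calls over wild type were lost when 1 library was left out. Such a fit leaves 1 library in a group, so it cannot tell a call that rests on 1 library from lost power. In these fits the log2 fold change of Parp14 in Ebf1-KO with Ebf1 was 0.80 to 1.01, and that of Mx2 was 2.01 to 3.39. In Ebf1-KO with Ebf1 replicate 1 left out, adjusted p-values were 0.21 for Mx2, 0.068 for Ifi35, 0.131 for Parp14 and 0.238 for Ifi27l2a. When its replicate 2 was left out they were 0.0516 for Mx2, 0.0523 for Ifi35, 0.0715 for Parp14 and 0.0507 for Oasl1. Leaving out wild-type replicate 1 gave, in that group, 0.107 for Mx2, 0.148 for Parp14, 0.0786 for Oasl1 and 0.103 for Ifi27l2a, and wild-type replicate 2 gave 0.0564 for Dtx3l, 0.148 for Ifi35, 0.0859 for Parp14, 0.0927 for Oasl1 and 0.25 for Ifi27l2a. In Pax5-KO with Pax5, leaving out its replicate 1 gave 0.16 for Mx1 and 0.0637 for Oasl1, and its replicate 2 gave 0.186 for Dtx3l and 0.104 for Oasl1. Wild-type replicate 1 gave there 0.0755 for Dtx3l, 0.0694 for Ifi44 and 0.134 for Oasl1. Wild-type replicate 2 gave 0.0677 for Ddx60, 0.166 for Dtx3l, 0.0516 for Ifi35, 0.1 for Ifi44, 0.185 for Mx1, 0.194 for Oasl1 and 0.0624 for Parp9. The Herc6 call was lost without wild-type replicate 2 in both groups given the other knockout's factor, with 0.0571 for Ebf1-KO with Pax5 and 0.103 for Pax5-KO with Ebf1.

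**Figure D2:**
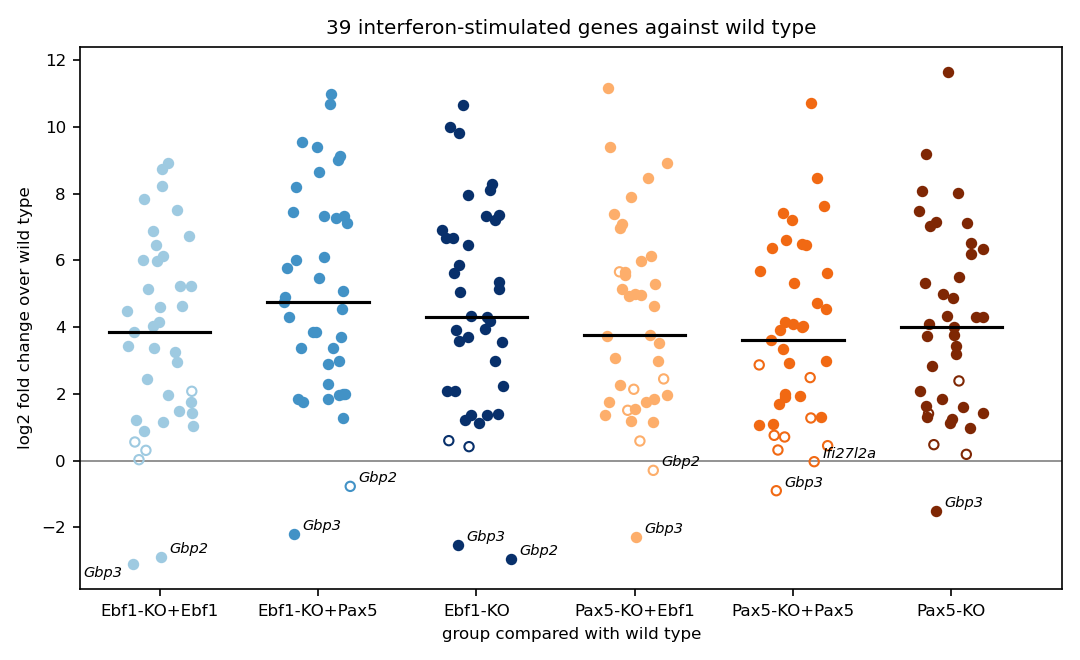
Log2 fold change over wild type (vertical axis) of the 39 interferon-stimulated genes in each of the 6 other groups, with filled points for called genes, open points for others and a bar at the median. Most points lie well above 0 in every group, and Gbp3 lies below 0 in all 6; fitted values of genes with 0 wild-type counts are not bounds.

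The share of the log2 rise that remained describes how far each group stood from its knockout. It was taken for members called higher in the knockout with more than 3 wild-type counts, and not for other genes. Both rises share the wild-type libraries, and choosing members that were high in the knockout can by itself pull the share down. The shares carry no test. In Ebf1-KO with Ebf1 the median of 30 members was 82.2% of the rise in Ebf1-KO, from 40.6% for Stat2 to 108% for Dtx3l. In Ebf1-KO with Pax5 the median was 111%, from 85.3% for Isg15 to 169% for Samhd1. In Pax5-KO with Ebf1 the median of 29 members was 106%, from 66.9% for Isg20 to 149% for Dtx3l, and in Pax5-KO with Pax5 it was 88.9%, from 19.9% for Samhd1 to 111% for Cmpk2. Summed levels were 2867 and 2657 CPM in Ebf1-KO with Ebf1, 6154 and 7222 CPM in Ebf1-KO with Pax5, 3832 and 3941 CPM in Pax5-KO with Ebf1, while Pax5-KO with Pax5 had 2771 and 2560 CPM. Each factor thus went with a lower summed level in the knockout that lacked it, and each with a higher one in the other knockout, but these sums carry no test. The rise of the sum with Ebf1 in Pax5-KO was not shared by most members. There 13 were higher and 10 lower in both replicate numbers, where 24.6% and 31.7% of all tested genes were, and the median log2 fold change was 0.14.

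Against the empty vector few single members changed. Ebf1 in Ebf1-KO lowered 2 members and raised 0, where 0.763% and 2.21% of all tested genes fell and rose, and the members' median log2 fold change was -0.57, against 0.00 over all tested genes. Both were OAS genes. Oasl2 fell by 2.97 ± 0.41 on the log2 scale (adjusted p = 5.3e-04) and Oas2 by 2.20 ± 0.43 on the log2 scale (adjusted p = 0.00888). The Oas2 call did not hold without replicate 1 of Ebf1-KO (adjusted p = 0.114) and without replicate 2 of the cells given Ebf1 (0.143), and the Oasl2 call held without any 1 library of the comparison. At an unadjusted p under 0.05 there were 14 members, all lower, where 4.74% of all tested genes were lower and 6.36% higher at that p. Of the 39 members 36 were lower in both replicate numbers, as were 33.3% of all tested genes.

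Pax5 in Ebf1-KO raised 5 members and lowered 0, where 3.15% and 0.935% of all tested genes rose and fell, with a median of 0.62, against -0.01 over all tested genes. Gbp2 rose by 2.16 ± 0.31 on the log2 scale (adjusted p = 8.9e-04), without reaching the wild-type level. Samhd1 rose by 0.94 ± 0.17 on the log2 scale (adjusted p = 0.00573), Oas3 by 1.19 ± 0.25 on the log2 scale (adjusted p = 0.0143), Trim30a by 0.88 ± 0.20 on the log2 scale (adjusted p = 0.0222) and Ifit2 by 1.54 ± 0.40 on the log2 scale (adjusted p = 0.0432). The Gbp2 call held without any 1 library. Without Ebf1-KO replicate 1 adjusted p-values were 0.163 for Samhd1, 0.162 for Oas3, 0.209 for Trim30a and 0.206 for Ifit2. Without Ebf1-KO with Pax5 replicate 2 they were 0.0528 for Samhd1, 0.189 for Oas3, 0.199 for Trim30a and 0.23 for Ifit2. Without Ebf1-KO replicate 2 they were 0.117 for Oas3, 0.154 for Trim30a and 0.254 for Ifit2, and Ifit2 was also lost without Ebf1-KO with Pax5 replicate 1 (0.0613).

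Ebf1 in Pax5-KO lowered Oasl2 and raised Usp18, where 1.85% and 1.75% of all tested genes fell and rose, with a median over the members of 0.14, against -0.04. Oasl2 fell by 1.99 ± 0.40 on the log2 scale (adjusted p = 0.0129), and the call did not hold without Pax5-KO replicate 2 (adjusted p = 0.107). Usp18 rose by 1.28 ± 0.31 on the log2 scale (adjusted p = 0.0345). That call was lost without Pax5-KO replicate 1 (0.11) or 2 (0.263) and without Pax5-KO with Ebf1 replicate 1 (0.214). Oasl2 thus fell with Ebf1 in both knockouts, which share no library in these 2 comparisons.

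Pax5 in Pax5-KO lowered 2 members and raised 0, where 2.40% and 1.64% of all tested genes fell and rose, with a median of -0.40, against 0.01. Samhd1 fell by 1.29 ± 0.17 on the log2 scale (adjusted p = 5.0e-04) and Ddx58 by 0.82 ± 0.22 on the log2 scale (adjusted p = 0.0469). The Samhd1 call held without any 1 library, while the Ddx58 call was lost without any 1 of the 4, with adjusted p-values from 0.0869 to 0.464. The counts of 0 for members raised by Ebf1 in Ebf1-KO, lowered by Pax5 in Ebf1-KO and raised by Pax5 in Pax5-KO are edgeR calls, and DESeq2 called 0 in each of these as well. At an unadjusted p under 0.05 there were 17 members for Pax5 in Ebf1-KO, all higher, 10 for Ebf1 in Pax5-KO, 7 of them higher, and 7 for Pax5 in Pax5-KO, all lower. Over all tested genes the shares at that p in either direction were 16.7% for Pax5 in Ebf1-KO, 20.7% for Ebf1 in Pax5-KO and 14.7% for Pax5 in Pax5-KO.

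**Figure D3:**
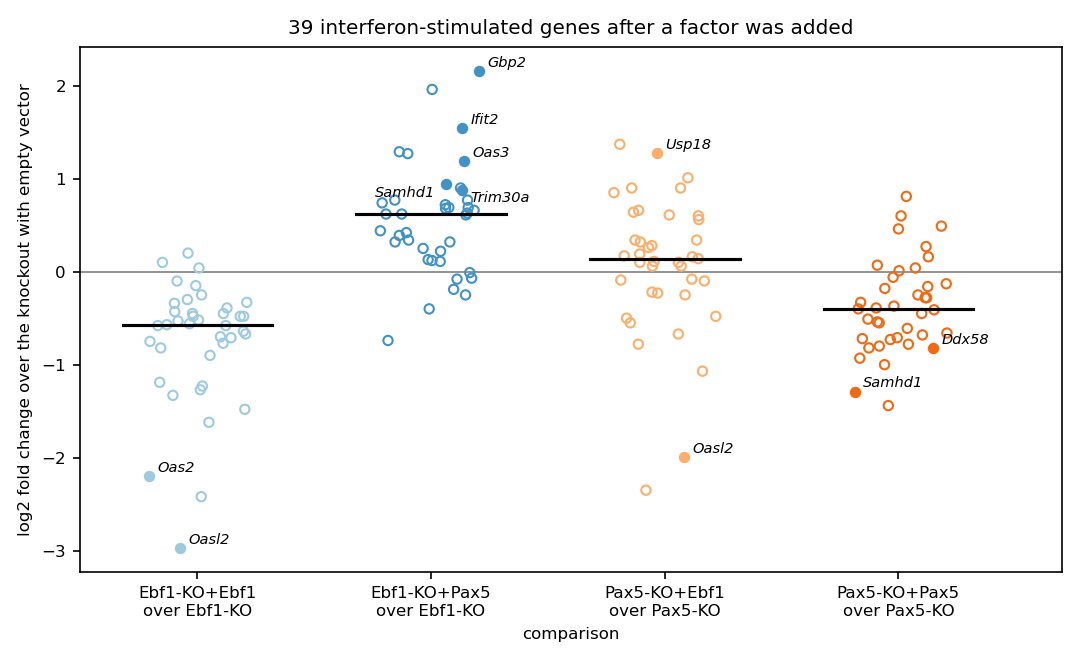
Log2 fold change of the 39 interferon-stimulated genes (vertical axis) after Ebf1 or Pax5 was added, over the same knockout with the empty vector, with filled named points for called genes and bars at the medians. The median is lowest with Ebf1 in Ebf1-KO (-0.57) and highest with Pax5 in Ebf1-KO (0.62).

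**Figure D4:**
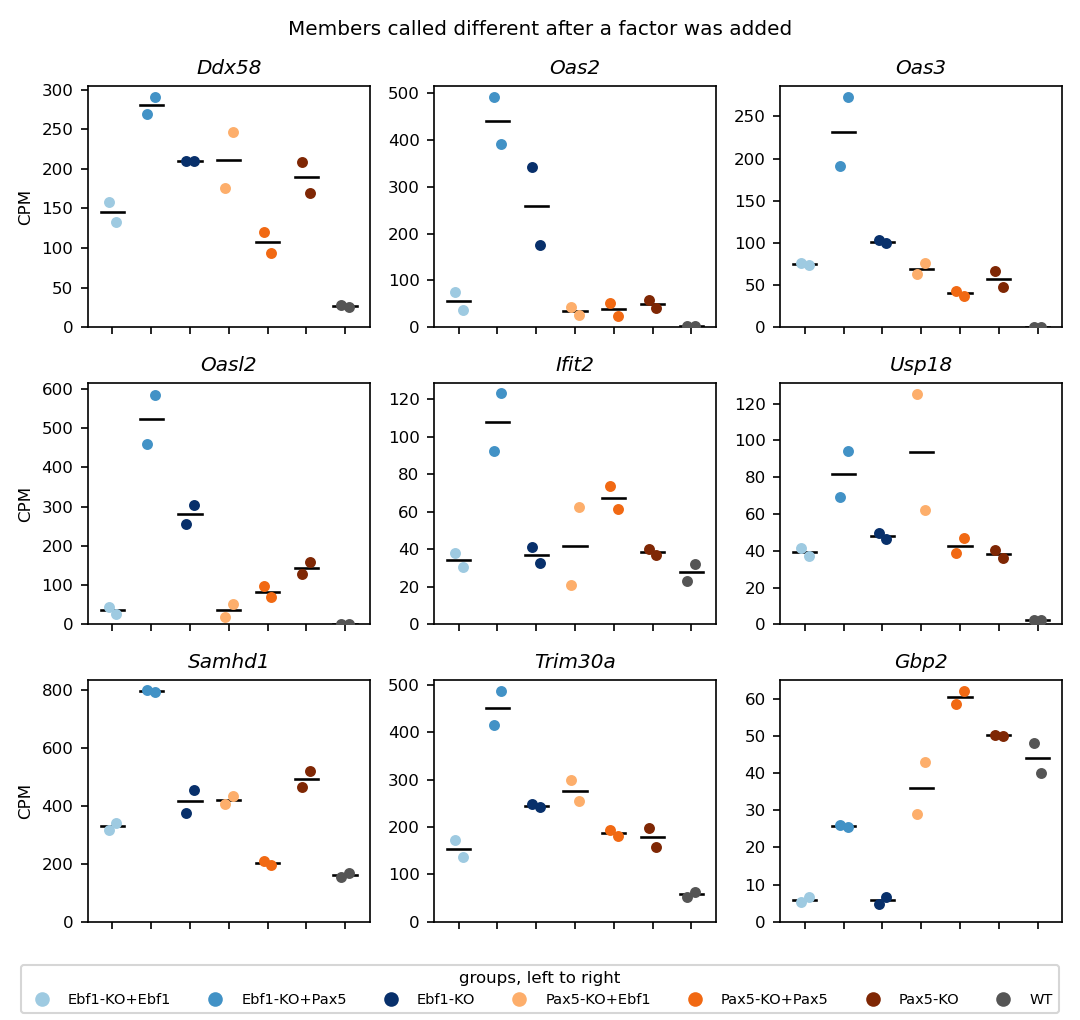
CPM in each library (points, linear axes from 0) and group mean (bars) of the 9 members called after a factor was added. Ebf1-KO with Pax5 is the highest group for 7 of the 9, the exceptions being Usp18 and Gbp2. That count follows in part from the choice of genes, since 5 of the 9 were picked because they were called higher with Pax5 in Ebf1-KO.

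The same factor could act differently in each knockout, and this difference was tested itself. The Pax5 effect in Pax5-KO minus that in Ebf1-KO was negative for 4 called members and positive for 0, where 2.43% and 0.735% of all tested genes were, and 19 members and 16.3% of all tested genes had an unadjusted p under 0.05. These 19 were all negative, where 9.42% of all tested genes were negative and 6.9% positive at that p. The median difference was -0.89 over the members and 0.00 over all tested genes. For Samhd1 the difference was -2.23 ± 0.25 (adjusted p = 2.4e-04), from a fall in Pax5-KO and a rise in Ebf1-KO that were each called. The differences of Oas3, Gbp2 and Ddx58 were -1.70 ± 0.35 (adjusted p = 0.0179), -1.90 ± 0.42 (adjusted p = 0.0263) and -1.24 ± 0.30 (adjusted p = 0.04). The Samhd1 difference held without any 1 library. The others did not hold without some, with adjusted p-values from 0.0621 to 0.105 for Oas3 (without either Ebf1-KO library, replicate 1 of Pax5-KO, or replicate 2 of either group given Pax5), 0.0507 to 0.155 for Gbp2 (any of the 8 libraries but Ebf1-KO replicate 2) and 0.063 to 0.208 for Ddx58 (any of the 8). For Ebf1 the difference, in Ebf1-KO minus in Pax5-KO, was called for 0 members by edgeR in either direction, where 0.577% and 0.0344% of all tested genes were called higher and lower. DESeq2 called 2 members, and 13 members and 8.38% of all tested genes had an unadjusted p under 0.05. These 13 were all negative, where 2.76% of all tested genes were negative and 5.62% positive at that p. The median difference was -0.83 over the members and 0.08 over all tested genes.

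The 2 knockouts themselves differed in 4 members, 3 of them higher and 1 lower in Ebf1-KO than in Pax5-KO, where 1.15% and 2.94% of all tested genes were, and the median was 0.33 over the members and 0.01 over all tested genes. Oas2 was higher by 2.38 ± 0.43 on the log2 scale (adjusted p = 0.00383), Ifi27l2a by 2.19 ± 0.57 on the log2 scale (adjusted p = 0.0422) and Oas1a by 1.84 ± 0.49 on the log2 scale (adjusted p = 0.0492), and Gbp2 was lower, at -3.12 ± 0.32 (adjusted p = 2.7e-05). The Gbp2 call held without any 1 library. The Oas2 call did not hold without Ebf1-KO replicate 1 (adjusted p = 0.0535) or Pax5-KO replicate 2 (0.0886). Those of Ifi27l2a and Oas1a were lost without any 1 of the 4 libraries, with adjusted p-values from 0.0503 to 0.45 and from 0.168 to 0.418.

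EBF1 peaks in 230-238 cells lay within 1 kb of the start of 7 members, or 17.9%, against 17% of all 24506 genes and 27.4% of the tested genes, and the list holds 17230 peaks. Scores are the authors' own for that list, with a median of 41. The 7 were Irf7, Oas2, Oas3, Oasl2, Usp18, Samhd1 and Parp14. The peak at Oasl2 (chr5:114897509-114897829, mm10) was centred 735 bases from the start with a score of 191, and that at Usp18 (chr6:121245453-121245773) 293 bases away with a score of 121. Samhd1 had a peak 731 bases away with a score of 52, Oas2 one 335 bases away with a score of 39, and Oas3 one 136 bases away with a score of 31. The 3 members called after Ebf1 was added, Oasl2, Oas2 and Usp18, were thus all among the 7, an overlap seen after the values and not tested. Oasl2 and Oas2 had fallen, while Usp18 had risen. With only peaks at or above the median score 5 members had a peak within 1 kb, and Oas2 was not among them. These were 12.8% of members, against 7.19% of all genes and 11.5% of the tested genes. Within 100 kb 30 members had a peak, or 76.9%, against 67.8% of all genes and 85% of the tested genes.

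The signalling machinery upstream was read from lists of other genes. Of the 17 interferon ligand genes 11 had 0 counts in all 14 libraries, and the summed level of the 17 was 0.12 to 1.56 CPM. Ifnk and Ifng passed the filter, at 1.23 and 1.21 CPM at most, and neither was called in any comparison by edgeR. Of 6 receptor genes 3 rose and 1 fell in Ebf1-KO, and 3 rose in Pax5-KO. Ifnar2 rose by 2.19 ± 0.23 on the log2 scale (adjusted p = 9.7e-06) in Ebf1-KO and 1.51 ± 0.23 on the log2 scale (adjusted p = 3.2e-04) in Pax5-KO, Ifnar1 by 0.69 ± 0.20 on the log2 scale (adjusted p = 0.0306) and 1.12 ± 0.20 on the log2 scale (adjusted p = 0.00151), and Ifngr1 by 1.33 ± 0.28 on the log2 scale (adjusted p = 0.00377) and 2.27 ± 0.28 on the log2 scale (adjusted p = 5.6e-05). Ifnar2 fell with Ebf1 in Ebf1-KO, by 1.02 ± 0.22 on the log2 scale (adjusted p = 0.0195), and with Pax5 in Pax5-KO, by 0.91 ± 0.22 on the log2 scale (adjusted p = 0.0334), and Ifnar1 also fell with Pax5 in Pax5-KO, by 0.89 ± 0.20 on the log2 scale (adjusted p = 0.0192). Ifngr1 fell in Pax5-KO with either factor, by 1.75 ± 0.28 on the log2 scale (adjusted p = 0.00312) with Ebf1 and by 1.34 ± 0.27 on the log2 scale (adjusted p = 0.0106) with Pax5.

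Other regulators did not follow the members as a block. Among 7 further IRF genes 0 rose and 1 fell in Ebf1-KO, and 1 rose and 2 fell in Pax5-KO. Irf4, an IRF needed for light chain rearrangement, fell by 3.55 ± 0.35 on the log2 scale (adjusted p = 4.5e-06) in Ebf1-KO and by 2.90 ± 0.34 on the log2 scale (adjusted p = 3.0e-05) in Pax5-KO. Irf1, a target of interferon-gamma, was at 1.07 ± 0.38 (adjusted p = 0.0795) in Ebf1-KO and rose by 1.60 ± 0.39 on the log2 scale (adjusted p = 0.0124) in Pax5-KO. Of 13 sensing and adaptor genes 2 rose and 2 fell in Ebf1-KO, and 3 rose and 2 fell in Pax5-KO. Among these Mb21d1, which encodes the DNA sensor cGAS, rose by 5.52 ± 0.55 on the log2 scale (adjusted p = 4.9e-06) and 4.30 ± 0.52 on the log2 scale (adjusted p = 4.5e-05) in Ebf1-KO and Pax5-KO, and Tlr7, an endosomal RNA sensor, by 3.39 ± 0.27 on the log2 scale (adjusted p = 6.1e-07) and 3.70 ± 0.27 on the log2 scale (adjusted p = 3.7e-07). Tlr4 fell by 4.07 ± 0.97 on the log2 scale (adjusted p = 0.00982) and 3.83 ± 0.96 on the log2 scale (adjusted p = 0.0153), and Unc93b1, the chaperone of endosomal receptors, by 1.47 ± 0.20 on the log2 scale (adjusted p = 1.0e-04) and 1.20 ± 0.20 on the log2 scale (adjusted p = 7.3e-04). Of 5 brakes on signalling 1 rose in each knockout, Ptpn6 in Ebf1-KO and Socs1 in Pax5-KO.

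Many antigen presentation and further interferon-induced genes were higher too, in lists chosen with earlier results of these data known. Over all tested genes 8.02% rose in Ebf1-KO and 8.65% in Pax5-KO. Of 12 class I presentation genes 8 rose in Ebf1-KO and 11 in Pax5-KO, with medians of 1.09 and 1.43 log2 units. B2m, the class I light chain, rose by 1.08 in Ebf1-KO and 1.90 in Pax5-KO, and the heavy chain gene H2-K1 by 0.71 in Ebf1-KO and 1.81 in Pax5-KO. The immunoproteasome subunit gene Psmb8 rose by 1.63 and 1.72 in Ebf1-KO and Pax5-KO, and Psmb9 by 1.68 and 1.43. Of 34 other interferon-induced genes 20 rose and 2 fell in Ebf1-KO, and 20 rose in Pax5-KO. Ifi204, a DNA sensor of the PYHIN family, had 10.02 and 7.04 CPM in Ebf1-KO and 11.8 and 13.6 CPM in Pax5-KO, against 0.0518 and 0 CPM in wild type. Gbp6 had 13.9 and 8.67 CPM in Ebf1-KO and 19.9 and 14.1 CPM in Pax5-KO, against 0.0518 and 0.0572 CPM in wild type. Slfn5, a Schlafen family gene, rose by 6.35 log2 units in Ebf1-KO and 5.37 in Pax5-KO, and Ifitm3, a barrier to virus entry, by 4.05 and 5.34. Gbp5 and Gbp7 were the 2 that fell in Ebf1-KO, as Gbp2 and Gbp3 did, by 1.97 ± 0.51 on the log2 scale (adjusted p = 0.0162) and 1.78 ± 0.22 on the log2 scale (adjusted p = 5.1e-05). Gbp6 was called higher in both knockouts, so the GBP genes did not all go 1 way.

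Markers of other cell types moved with the groups as well. The summed level of 13 myeloid markers was 397 and 335 CPM in Ebf1-KO with Ebf1, 952 and 855 with Pax5 and 718 and 688 with the empty vector. In Pax5-KO it was 519 and 427 CPM with Ebf1, 204 and 226 with Pax5 and 676 and 770.2 with the empty vector, against 139 and 145 CPM in wild type, and 9 of 13 were called higher in each knockout. The 6 plasmacytoid dendritic cell markers summed to 1208 and 1425 CPM in Ebf1-KO and 774 and 931 CPM in Pax5-KO, against 363 and 352 in wild type, with 4 of 5 tested called higher in Ebf1-KO, and 3 higher and 1 lower in Pax5-KO, and 1 gene not tested. Most of that sum was Ccr9, at 789 and 959.9 CPM in Ebf1-KO and 543 and 686 CPM in Pax5-KO, against 2.23 and 1.77 CPM in wild type, while in wild type nearly all of it was Tcf4, at 247 and 260.0 CPM in Ebf1-KO and 208 and 216 CPM in Pax5-KO, against 356 and 342 CPM in wild type. Siglech, which defines that cell type, had 30.1 and 30.7 CPM in Ebf1-KO and 8.39 and 4.56 CPM in Pax5-KO, against 0 and 0.0572 CPM in wild type. The 10 NK and innate lymphoid markers summed to 149.9 and 183 CPM in Ebf1-KO and 284 and 316 CPM in Pax5-KO, against 0.725 and 1.72 in wild type. Of the 9 tested, 6 were called higher in Ebf1-KO and 8 in Pax5-KO. Ncr1 and Prf1, also on this list, were at 1.07 CPM or less in both knockouts. The 9 T lineage markers summed to 242 and 278 CPM in Ebf1-KO and 312 and 344 CPM in Pax5-KO, against 10.4 and 8.35 CPM in wild type, with 6 and 4 of 7 tested called higher, and Cd3e was at 0.173 CPM or less in both knockouts. The 8 stromal markers summed to 62.7 and 72.1 CPM in Ebf1-KO, nearly all of it Pdgfrb, and to 8.63 and 13.7 in Pax5-KO, against 2.12 and 0.915 in wild type, and Dcn was at 0 in all 14 libraries. The members' sum was lower in Ebf1-KO with Ebf1 and Pax5-KO with Pax5, and there the sum of each of these lists was lower too. In Pax5-KO with Ebf1 the members' sum was not lower. There the myeloid (519 and 427 CPM), plasmacytoid (414 and 335), T lineage (145 and 179) and stromal (1.44 and 7.18) sums were lower. The NK sum, at 312 and 199.9 CPM, overlapped that of Pax5-KO, but most of it was the single gene Gzma, which was higher there. Of the 9 tested NK markers 3 were called lower and 1 higher than in Pax5-KO, with a median log2 fold change of -2.49. Over all tested genes 1.85% were lower and 1.75% higher in that comparison. In Ebf1-KO with Pax5, where the members' sum was higher, the myeloid, NK and stromal sums were higher too. The plasmacytoid (1032 and 1232 CPM) and T lineage (279 and 258) sums there overlapped those of Ebf1-KO. The part of these cell types in the members' levels was not tested.

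**Figure D5:**
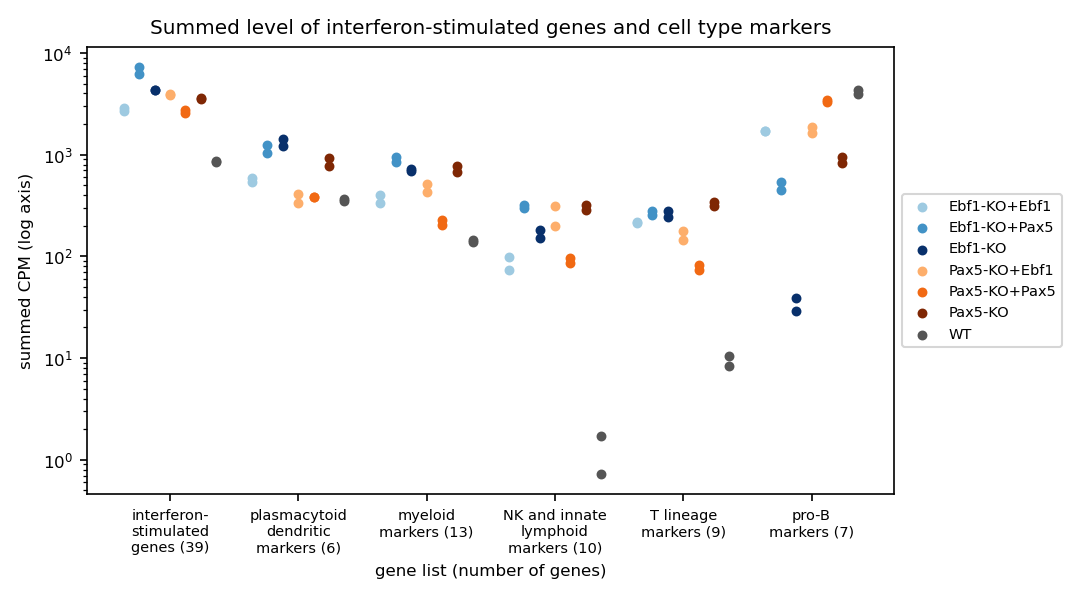
Summed CPM (log axis) of the 39 interferon-stimulated genes and of 5 marker lists in each library, coloured by group. The members and the myeloid, NK and T lists are lowest in wild type, the plasmacytoid list of wild type overlaps with Pax5-KO with Ebf1 and lies just below Pax5-KO with Pax5, and the pro-B list is highest in wild type.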

How the data were processed

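Exon read counts per gene were deposited as whole numbers without normalization, made by the authors with HOMER, per the file headers. Per the submitters' processing notes, tools included STAR 2.6.0b-1, HOMER 4.8 and DESeq2 on mm10, with no roles given. The strand setting is not given in the sources used here. For the EBF1 peak list the authors deposited a score, a normalized tag count (a signal) and a ratio to control for each peak.

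All 14 libraries entered 1 edgeR 4.0.16 quasi-likelihood fit in R 4.3.3, with TMM scaling, filterByExpr (14550 genes kept), group as the only term, and Benjamini-Hochberg adjustment over all kept genes at 0.05. The test was tried on simulated counts first. In place of a fold against 0 wild-type counts, a floor of 3 counts over the group was used. For 1 to 3 counts the ratio has a 95% counting interval. Both cover counting error only. Alternatives were RLE scaling, no filter, DESeq2 1.42.0, a replicate block and each library left out. Of the columns of per-sample values 0 were unused, and 1 unnumbered Pax5-KO column counts as replicate 1. The replicate numbers were not taken to pair samples. The contact profiles were not used. Members, lists and motifs were chosen with earlier results of these data known. Named genes were all members, with values by library for those called, for the most abundant of each class and for those not called, and, in other lists, those called in both knockouts, at most the 4 largest by the greater of their 2 changes, with Irf1, Ifnar1 and Ifnar2. Another gene that the rule names is not reported here.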

Additional observations from a re-analysis of the deposited data

Results flagged for a closer look

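Adding Pax5 moved 4 members differently in Pax5-KO than in Ebf1-KO, by the test of the difference itself in the edgeR fit. The difference in log2 effect, Pax5-KO minus Ebf1-KO, was -2.23 for Samhd1 (adjusted p = 2.4e-04), -1.70 for Oas3 (0.0179), -1.90 for Gbp2 (0.0263) and -1.24 for Ddx58 (0.04). Samhd1 fell by 1.29 ± 0.17 on the log2 scale (adjusted p = 5.0e-04) in Pax5-KO and rose by 0.94 ± 0.17 on the log2 scale (adjusted p = 0.00573) in Ebf1-KO. Ddx58 was called in Pax5-KO, where it fell by 0.82 ± 0.22 on the log2 scale (adjusted p = 0.0469), and its change in Ebf1-KO was 0.42 ± 0.21 (adjusted p = 0.357). Oas3 and Gbp2 were called in Ebf1-KO, and their changes in Pax5-KO were -0.51 ± 0.25 (adjusted p = 0.363) and 0.27 ± 0.29 (adjusted p = 0.798). With 1 of the 8 libraries left out in turn, the difference was kept in every case for Samhd1 and lost in 8 of 8 cases for Ddx58, 7 of 8 for Gbp2 and 5 of 8 for Oas3. Groups of 2 libraries are too small for a check of single outlying libraries.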

How the results depend on the processing

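Over 507 results of a member in a comparison, RLE scaling changed 0 calls, DESeq2 added 25, leaving out the low-count filter added 33 and lost 1, and the replicate block added 11 and lost 1 (Mx2 in Ebf1-KO with Ebf1 against wild type, adjusted p = 0.0547). Leave-one-out fits kept 2225 results, added 17 and lost 98. A sign change of a result called in neither fit was not counted as a reversal, and 0 called results reversed. Members higher than wild type numbered 28 to 30 in Ebf1-KO with Ebf1 and 24 to 28 in Pax5-KO with Pax5 when 1 library was left out, against 33 and 30 as reported. For members lower with Ebf1 in Ebf1-KO (2 as reported), no filter gave 6, DESeq2 4 and the replicate block 4, and leaving out 1 library gave 1 to 2. Members higher with Pax5 in Ebf1-KO (5) numbered 8 without the filter, 8 by DESeq2 and 7 with the block, and 1 to 4 in leave-one-out fits. With Ebf1 in Pax5-KO, 1 member was higher as reported, 2 without the filter and 4 by DESeq2, with 0 to 3 in leave-one-out fits, and 1 was lower, with 0 to 2. With Pax5 in Pax5-KO 2 were lower, 6 without the filter, and 1 in each leave-one-out fit. Members higher in Ebf1-KO than Pax5-KO (3) numbered 5 by DESeq2 and 0 to 1 leaving out 1 library. The negative Pax5 differences (4) numbered 9 without the filter, 11 by DESeq2 and 1 to 3 in leave-one-out fits. The negative Ebf1 differences (0) numbered 3 without the filter, 2 by DESeq2, 1 with the block and up to 2 in leave-one-out fits. Members lower than wild type were 2 by DESeq2 in Ebf1-KO with Pax5 (1 as reported) and 1 in Pax5-KO with Pax5 (0), and 0 to 1 in Pax5-KO leaving out 1 library. The cause was not tested. Deviations of same-numbered libraries from their group means correlated at 0.0764 to 0.236 in the 15 pairs among the 6 other groups, over 0.1 in 13 of them, and at -0.0586 to 0.0126 in the 6 pairs with wild type. A tag in the column names splits libraries by replicate number, and what it marks is not given. Of the members 7 had an EBF1 peak within 1 kb, 12 within 5 kb and 30 within 100 kb. The exact core stood in 15 members' windows, and in 26 with 1 mismatch allowed, where 38.9% of genes did. With 2 libraries a group, many calls of moderate changes were lost when 1 library was left out. That leaves 1 library in the group and cannot show that a call rested on the other. Genes with few wild-type counts have bounds or wide intervals. In Pax5-KO with Ebf1 the 2 libraries lay far apart for some members, such as Cxcl10 (3.604 and 18.1 CPM), Ddx60 (81.3 and 23.4) and Isg20 (6.25 and 28.8). They lay close for others, such as Rtp4 (117 and 114) and Irf7 (70.7 and 77.9). The fit takes each gene's spread over all 7 groups, so such differences enter its p-values in every comparison.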

Other observations

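Gzma made up most of the NK and innate lymphoid marker sum wherever Ebf1 was added, at 256 and 127 CPM in Pax5-KO with Ebf1 and 69.6 and 41.3 CPM in Ebf1-KO with Ebf1, against 10.6 and 6.46 CPM in Pax5-KO and 2.01 and 0.311 CPM in Ebf1-KO, and Prf1 stayed at 1.40 CPM or less in those 8 libraries. Ifitm1, which encodes a membrane barrier to virus entry, was 253 and 305 CPM in Pax5-KO with Pax5 and 92.3 and 121 in Ebf1-KO with Pax5, against 979 and 1821 in Pax5-KO and 272 and 312 in Ebf1-KO. It fell with Pax5 in both knockouts, by 2.33 ± 0.26 on the log2 scale (adjusted p = 1.0e-04) in Pax5-KO and 1.45 ± 0.26 on the log2 scale (adjusted p = 0.00436) in Ebf1-KO, and by 1.28 ± 0.26 on the log2 scale (adjusted p = 0.0131) with Ebf1 in Pax5-KO, but rose by 1.03 ± 0.26 on the log2 scale (adjusted p = 0.0422) with Ebf1 in Ebf1-KO. Sp100, a nuclear body protein, fell by 0.97 ± 0.22 on the log2 scale (adjusted p = 0.0217) with Pax5 in Pax5-KO and by 1.16 ± 0.22 on the log2 scale (adjusted p = 0.00796) with Ebf1 in Ebf1-KO, and rose by 1.19 ± 0.22 on the log2 scale (adjusted p = 0.00638) with Pax5 in Ebf1-KO. These genes were picked after their values were seen.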
